A study of Mus musculus with 2 samples.

Results

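The vascular smooth muscle cells of the mouse choroid plexus were represented by 69 barcodes, 45 from a library of 3-month-old mice and 24 from a library of 24-month-old mice, out of 19584 barcodes in the deposited tables (9154 and 10430). A barcode stands for 1 droplet, usually 1 cell, and its values are counts of unique molecular identifiers (UMIs), each standing for 1 captured transcript. Barcodes were first kept when they held at least 500 genes, at most 25% of UMIs from mitochondrially encoded genes and under 10% of UMIs from Ttr, the transthyretin transcript of the plexus epithelium. Of these 5822 kept barcodes (2732 and 3090), the members held at least 10 UMIs of Acta2, Tagln and Myh11 together and fewer than 8 UMIs of 7 endothelial genes (Pecam1, Cdh5, Kdr, Flt1, Emcn, Egfl7 and Esam). The members were thus chosen by their measured levels of these genes, which describe the choice and are not results.

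The mice were female C57BL/6 of 3 or 24 months, and no other treatment or allele is named in the labels. At each age the lateral and 4th ventricle plexuses of 4 perfused mice were pooled, digested with collagenase and DNase, and made into 1 droplet library with a 10x Genomics 3′ kit. With 1 library per age the spread between animals was not measured, no test between ages was possible, and age, library and pool cannot be told apart. All intervals are exact 95% intervals that cover counting error only.

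Vascular smooth muscle cells wrap arteries and arterioles and set the width of the vessel. Calcium entering the cytoplasm activates myosin light chain kinase, and phosphorylated myosin then pulls on actin, while nitric oxide and cyclic GMP favour relaxation. Pericytes sit on capillaries in the same mural lineage, share PDGF receptor beta and Notch3 with smooth muscle, and carry little of the contractile apparatus. Many contractile genes are targets of serum response factor, which binds the CArG box (CC, then 6 bases that are each A or T, then GG), and of its partner myocardin.

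The CArG box was searched in the RefSeq promoters of the rule genes and of a list of 38 contractile apparatus genes, because many of these genes were high in the same barcodes. Vcl and Ldb3, whose windows are shown for their exact boxes, were not past the size rule used below in both libraries. Each sequence is given 5′ to 3′ on the gene's strand in build GRCm38.p6, with the box or its near match in capitals. Exact boxes lay in the promoters of Myl9 (myosin regulatory light chain), Myl6 (essential light chain), Vcl (vinculin, which anchors actin at the membrane) and Ldb3 (a Z-disc protein), and Acta2 (smooth muscle actin) held a match that was 1 base off.
Myl9, chr2:156775293-156775322, + strand, box starting 161 bases before the start: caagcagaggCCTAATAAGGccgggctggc
Myl6, chr10:128493040-128493069, - strand, box starting 50 bases before the start: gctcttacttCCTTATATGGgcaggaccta
Vcl, chr14:20929161-20929190, + strand, box starting 227 bases before the start: cccactatgcCCTTATAAGGagcgccccgc
Ldb3, chr14:34588697-34588726, - strand, box starting 35 or 109 bases before 2 listed starts: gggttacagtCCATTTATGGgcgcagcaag
Acta2, chr19:34255438-34255467, - strand, near match starting 84 bases before the start: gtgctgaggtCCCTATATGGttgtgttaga
Of the 41 rule and contractile genes, 36 matched the promoter table with 47 promoters, and 5 of these promoters (10.6%, from 4 genes) held an exact box in the 250 bases before the start, against 482 of all 32851 promoters (1.47%). For Myl6 the box lay before 1 of its listed starts, and its promoter at chr10:128493887-128494136 held 0 boxes. The box is a palindrome, so both strands are covered. Counted apart from exact boxes, a match with 1 of the inner 6 bases off lay in 8 of 47 promoters (17.0%) and in 2380 of 32851 (7.24%). The Acta2 window is upstream of the RefSeq start but overlaps a UTR in the GENCODE vM21 annotation, which places the gene's start further out. A match describes letters in this window and is not a measured binding site. Tagln and Myh11 had no entry in the table.

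The 2 libraries were of like depth, with 111403078 and 116777113 UMIs in all and a median of 10823 and 10739 UMIs per barcode. The smooth muscle barcodes were shallower and held 151398 and 74159 UMIs in all, so that 1 UMI was worth 6.61 and 13.5 CPM (counts per 1000000 summed UMIs of a class), the unit of level used below. Their median was 3346 UMIs at 3 months (1592 to 6942) and 3147.5 at 24 months (1935 to 5564). Ttr, an epithelial transcript, took a median of 1.98% and 1.44% of a member's UMIs, and up to 6.14% and 9.76% in 1 barcode. The libraries shared 29 barcode sequences, none of them a member.

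The levels of the 3 marker genes follow from the rule and do not check the label, which was compared with the markers of other cells and with contractile genes outside the rule. Acta2, the actin of the contractile filament, reached 867 and 401 UMIs in the younger and older members (5727 and 5407 CPM), and 0.775 and 0.690 CPM in the Ttr-high barcodes of the epithelium. Tagln, the actin-binding protein SM22 alpha, had 5760 and 6405 CPM, and Myh11, the smooth muscle myosin heavy chain, had 4524 and 3331 CPM. At 24 months 1 member, with 11 Tagln UMIs, lacked both Acta2 and Myh11, and held 8 pericyte-rule UMIs, 69 Mgp UMIs and 0 UMIs of Myl9, Tpm1 and Tpm2, so its markers go against the label. Without members of 3 or more pericyte-rule UMIs, this one included, the contractile ratio to pericyte-marker barcodes at 24 months was 5.21 in place of 4.82. The summed markers ran from 11 to 117 UMIs per barcode at 3 months (median 55) and from 11 to 104 at 24 months (median 40).

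The limit of 10 UMIs fell in a thinly filled range. Just inside it lay barcodes with 11 and 16 marker UMIs at 3 months and 11 and 18 at 24 months, and just outside it barcodes with 8, 7 and 6, and with 6, 5 and 5. The endothelial limit left out 9 and 3 further barcodes with 10 or more marker UMIs. The plot of marker UMIs per barcode uses the sums that chose the members, so it shows the choice and does not check it.

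**Figure D1:**
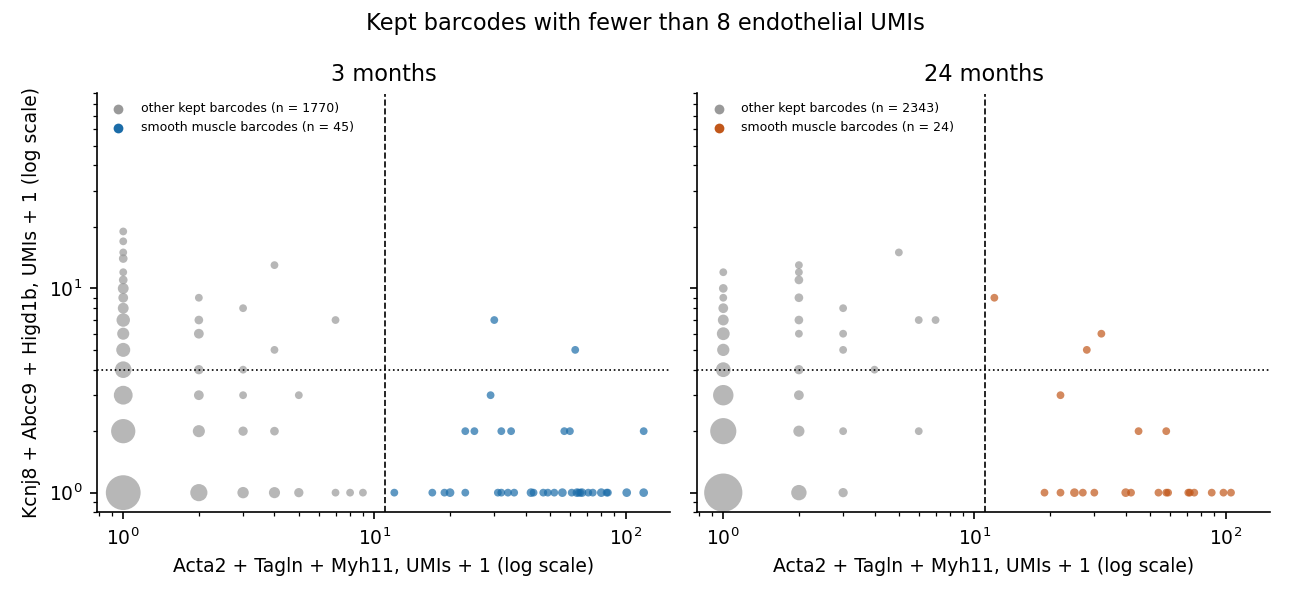
Each panel is 1 library; the x axis gives the summed UMIs of Acta2, Tagln and Myh11 plus 1 and the y axis those of Kcnj8, Abcc9 and Higd1b plus 1, both on log scales, for kept barcodes with fewer than 8 endothelial UMIs, with larger grey dots for more barcodes at the same values. Dashed and dotted lines mark 10 smooth muscle and 3 pericyte-marker UMIs; most members hold no pericyte-marker UMI (35 of 45 and 18 of 24).

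Markers of other cells were low in members apart from those of the epithelium, which summed to 23382 and 26147 CPM, most of it Ttr. Of the 14 endothelial markers outside the rule, 11 were at 0 at each age, Cldn5 of tight junctions, Plvap of fenestrae and Vwf among them, and the list summed to 244 and 216 CPM. Leukocyte markers summed to 99.1 and 13.5 CPM with Ptprc, the pan-leukocyte CD45, at 0 at both ages. Fibroblast markers summed to 680 CPM at 3 months and 1780 CPM at 24 months, and 2 and 5 members held 8 or more UMIs of that list (up to 30 and 48 in 1 barcode). The 5 members at 24 months bear on the age comparison, which is given with and without them.

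Members were a smaller share of the kept barcodes at 24 months. They made up 1.65% at 3 months (45 of 2732, interval 1.20 to 2.20) and 0.777% at 24 months (24 of 3090, 0.498 to 1.15), a ratio of 0.472 (0.275 to 0.791). Pericyte-marker barcodes, with at least 3 UMIs of Kcnj8, Abcc9 and Higd1b (subunits of a pericyte potassium channel and a mitochondrial protein) and under 10 smooth muscle UMIs, went from 10.9% (298) to 7.12% (220), a ratio of 0.653 (0.546 to 0.780). Of these, 149 of 298 and 126 of 220 held 8 or more endothelial UMIs. A lean pericyte set, with fewer than 8 endothelial and fewer than 8 fibroblast UMIs and chosen after these values were seen, had 85 and 50 barcodes and a ratio of 0.520 (0.359 to 0.746).

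The balance of smooth muscle to pericytes did not differ beyond counting error. Members were 13.1% of members and pericyte-marker barcodes together at 3 months and 9.84% at 24 months, a ratio of 0.750 (0.437 to 1.26). They were 34.6% of members and lean pericyte barcodes together at 3 months and 32.4% at 24 months, a ratio of 0.937 (0.546 to 1.57). Members and pericyte-marker barcodes, of which the lean set is a part, had lower shares of the kept barcodes in the 24-month library. In the other kept barcodes of that shared total, median fibroblast UMIs were 2 at 3 months and 22 at 24 months, and the part of this in the shares was not tested. Both intervals of the balance include a change in either direction.

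The contractile programme set members apart from pericyte-marker barcodes in both libraries. This contrast is the one the rule drew, so its values are a description with no test. Counted as higher or lower were genes with 30 or more UMIs over both classes, a ratio of at least 1.5 either way and an interval that left out 1, in both libraries. By this size rule 222 of 5309 genes were higher in members (4.18%) and 473 lower (8.91%), and 99 (9.77%) and 123 (12.1%) of 1013 against lean pericyte barcodes. Of the contractile list, 27 of 33 genes counted were higher and none was lower, and 20 of 25 were higher and none lower against the lean set. Its summed ratio was 4.67 (4.53 to 4.82) at 3 months and 4.82 (4.62 to 5.03) at 24 months, and its median log2 ratio was 2.46 and 2.44 against -0.23 and -0.26 over all genes. Against lean pericyte barcodes the summed ratio was 3.86 (3.66 to 4.07) and 3.76 (3.52 to 4.03).

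Genes of myosin and its switch were higher in members. Myl9, the regulatory light chain that the kinase phosphorylates, had 3699 CPM at 3 months and 3385 at 24 months in members against 248 and 265 CPM in pericyte-marker barcodes. The ratios were 14.9 (13.0 to 17.1) and 12.8 (10.8 to 15.2). Mylk, the kinase itself, had 2094 and 2198 CPM and ratios of 9.46 and 8.58. Ppp1r12a, the targeting subunit of the opposing myosin phosphatase, was also higher, with ratios of 6.21 and 4.65. Myl6, with the box in 1 of its listed promoters and 0 boxes in another, had ratios of 4.59 and 3.80.

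Actin filament genes were higher in members as well. Tpm2, a tropomyosin that lies along actin, had 2147 and 2306 CPM, with ratios of 18 (14.8 to 21.8) and 20.6 (16.2 to 26.2). Tpm1, another tropomyosin, had 3144 and 2751 CPM and ratios of 11.5 and 9.59. Lmod1, the smooth muscle leiomodin that nucleates actin, had 667 and 782 CPM and ratios of 23.3 (16.0 to 34.7) and 27.3 (17.3 to 43.6). These 3 genes were among the most unequal of the list, also against lean pericyte barcodes, where Tpm2 had ratios of 11.3 and 8.79 and Lmod1 of 12.3 and 13.6. Palld, the actin cross-linker palladin, had 509 and 647 CPM and ratios of 18.8 and 43.7. Flna, filamin A, was less apart, with ratios of 6.78 and 5.68.

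Some familiar contractile genes were scarce or not set apart. Cnn1, calponin, a marker of mature arterial smooth muscle, had 7 and 8 UMIs in all, in 5 of 45 and 6 of 24 members. Smtn, smoothelin, had 19 and 11 UMIs and a ratio of 1.5 (0.872 to 2.45) at 3 months. Des, desmin of the intermediate filaments, had 429 and 539 CPM and ratios of 2.71 and 4.38, but 1.46 and 2.06 against lean pericyte barcodes, short of the size rule at 3 months. Cald1, caldesmon, likewise stood at 1.19 and 1.48 against the lean set. At this depth 3 UMIs correspond to 19.8 and 40.5 CPM, so lower levels were not resolved.

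Calcium handling in members showed a pump and its brake. Pln, phospholamban, which restrains the calcium pump of the sarcoplasmic reticulum, was counted in 78 and 33 UMIs (515 and 445 CPM at 3 and 24 months), in 31 of 45 and 15 of 24 members. No UMI of Pln was found in the 298 pericyte-marker barcodes at 3 months and 1 in the 220 at 24 months. Against 3 UMIs over that class the level at 3 months was at least 234-fold higher, and at 24 months the ratio was 481 (80.5 to 19563). The median depth of pericyte-marker barcodes was 4117 and 4195 UMIs, above that of members. Atp2a2, the pump itself (SERCA2), had 1136 and 876 CPM and ratios of 3.26 and 2.93. Casq2, the calcium store protein calsequestrin 2, had 24 and 9 UMIs.

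Of the 15 calcium handling and channel genes counted, 7 were higher in members (Cacna2d1, Atp2a2, Pln, Itpr1, Ano1, Cavin1 and Cavin3) and Itpr2, an inositol trisphosphate receptor, was among those lower. Against the lean set 3 of 5 were higher (Atp2a2, Pln and Cavin1) and none lower. Cavin1, a coat protein of caveolae, had 931 and 1052 CPM and ratios of 3.74 and 3.70. The voltage-gated potassium channel genes were near the limit of detection, with 11 and 11 UMIs of Kcna5 and 30 and 10 UMIs of Kcnab1, its beta subunit. Cacna1c, the pore of the L-type calcium channel, had 13 and 3 UMIs, and Kcnma1, the large-conductance potassium channel, had 7 and 0.

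Among receptors for vessel-active signals, the neuropeptide Y receptor marked members and the endothelin B receptor pericytes. Npy1r, through which sympathetic nerves constrict vessels, had 37 and 22 UMIs (244 and 297 CPM) in members and 11.7 and 12 CPM in pericyte-marker barcodes. The ratios were 20.8 (11.3 to 40.1) and 24.7 (11.9 to 53.3), and 15 (4.74 to 75.9) and 18.1 (4.45 to 159) against the lean set. It was detected in 24 of 45 members (53.3%) and 15 of 24 (62.5%), against 12 of 298 (4.03%) and 12 of 220 (5.45%) pericyte-marker barcodes of greater depth. With each barcode thinned to 1500 UMIs the shares were 35.6% and 37.5% against 1.4% and 0.926%.

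Ednrb, the endothelin B receptor, ran the other way, with 1 UMI at 3 months and 0 at 24 months in members against 426 and 609 CPM in pericyte-marker barcodes. Its ratio was 0.0155 (0.000392 to 0.0868) at 3 months, and at 24 months it was at least 15.1-fold lower. Against the lean set it was 0.0229 (0.000569 to 0.133) and at least 12.6-fold lower, so the difference remained where endothelial UMIs were few. Ednra, the endothelin A receptor, had ratios of 1.13 and 1.38 and was not set apart.

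The nitric oxide and cyclic nucleotide genes were partly shared with pericytes. Of the 27 vasoactive receptor and signalling genes counted, 8 were higher (Npy1r, Gucy1a1, Gucy1b1, Prkg1, Pde5a, Pde3a, Rgs4 and Rgs7bp) and 5 lower (Ednrb, Calcrl, Pde4d, Rgs2 and Gnaq). Gucy1a1, the alpha subunit of the nitric oxide receptor, had 740 and 580 CPM and ratios of 3.19 and 3.01, but 1.31 and 1.39 against the lean set. The phosphodiesterases kept their difference there. Pde3a, which breaks down cyclic AMP, had ratios of 3.72 and 5.44 against lean pericyte barcodes, and Pde5a, which breaks down cyclic GMP, of 1.58 and 2.04. Pde4d, another cyclic AMP phosphodiesterase, was lower in members, at 0.185 and 0.110. Rgs7bp, which tethers a regulator of G-protein signalling at the membrane, was higher at 4.17 and 6.78, and Rgs2, a brake on Gq signalling, lower at 0.210 and 0.281.

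Myocardin itself was seen in few UMIs. Myocd had 13 UMIs at 3 months and 6 at 24 months, in 11 of 45 and 4 of 24 members, against 0 of 298 and 1 of 220 pericyte-marker barcodes and 0 of 2389 and 1 of 2846 other kept barcodes. Of the 22 transcription factors counted, 2 were higher in members (Mef2c and Zfhx3) and 1 lower (Tcf21), while 3 of 10 were higher against the lean set (Mef2c, Klf2 and Zfhx3). Mef2c, a MADS-box factor of muscle, had 852 and 688 CPM, with ratios of 3.01 and 3.11 against lean pericyte barcodes. Zfhx3, a large zinc finger homeobox factor, had 727 and 850 CPM and ratios there of 2.97 and 4.32. Klf4, a factor linked to loss of the contractile state, had 2034 and 1793 CPM and was not apart from pericyte-marker barcodes (0.924 and 0.885).

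Beyond the listed pathways, the 12 genes highest in members by the naming rule included several of other kinds. Rcan2, an inhibitor of calcineurin, had 436 and 485 CPM and ratios of 45.7 (25 to 90.4) and 47.7 (23.8 to 104), and 40.0 and 19.7 against the lean set. Nrip2, a nuclear receptor-interacting protein, had 271 and 135 CPM and ratios of 369 (62.7 to 14944) and 36.4, the latter on 10 and 4 UMIs. Rbm24, a muscle splicing regulator, had 304 and 175 CPM and ratios of 138 and 63.1. Dgkb, a diacylglycerol kinase, had ratios of 105 and 27.8, and Crispld2, a secreted protein, of 17.6 and 15.3. The 12 genes lowest in members by the same rule were Flt1, Plvap, Kdr, Ptprb, Igfbp3, Ly6a, Stc1, Ly6c1, Srgn, Podxl, Ctla2a and Ednrb. Most of these are endothelial genes, and Flt1 and Kdr belong to the rule. Of these 12, Stc1 (stanniocalcin 1, with 201 and 492 CPM in lean pericyte barcodes) and Ednrb were also lower than the lean set by the size rule.

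**Figure D2:**
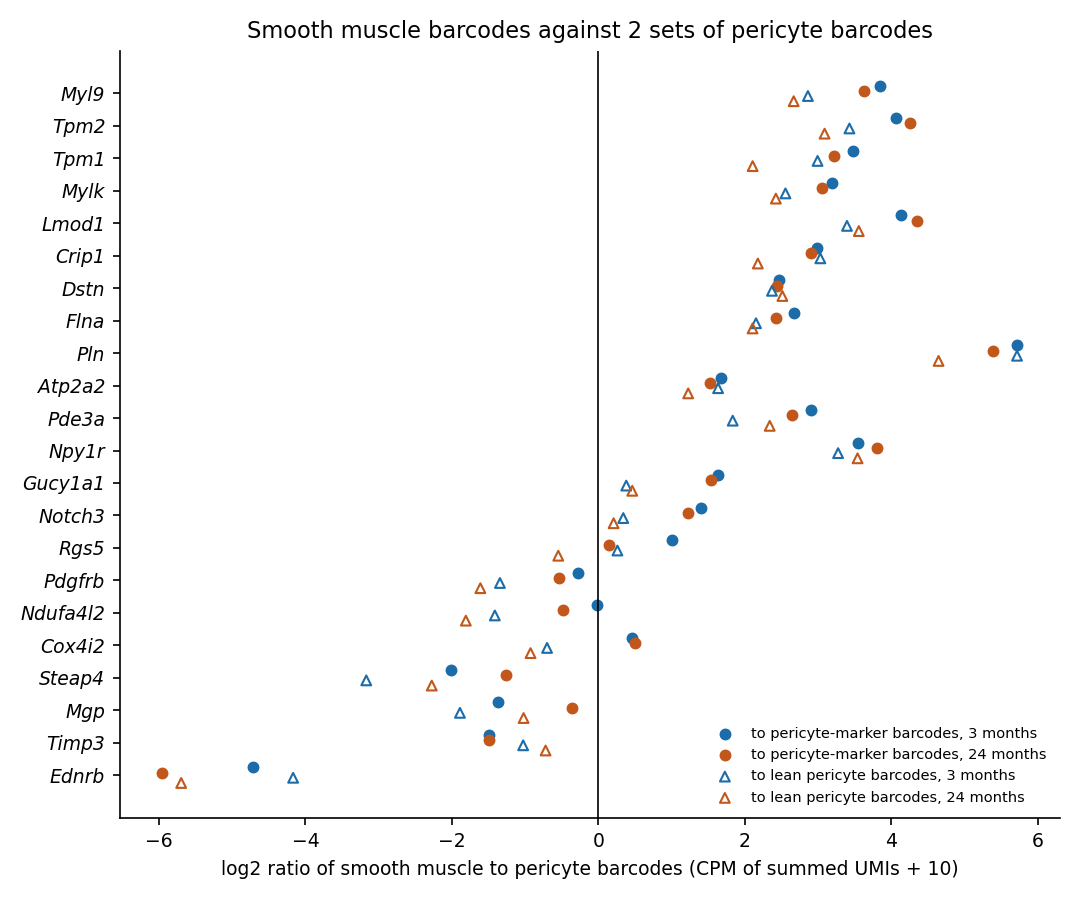
Log2 ratios of smooth muscle to pericyte barcodes, from CPM of summed UMIs plus 10, for 22 genes; filled circles compare with pericyte-marker barcodes, open triangles with lean pericyte barcodes, blue at 3 months and orange at 24 months. Contractile genes such as Tpm2 lie to the right of 0 in all 4 comparisons, Ednrb to the left, and Rgs5 on both sides.

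Pericyte genes outside the rule split by which pericyte barcodes were compared. Of 22 counted, 3 were higher in members than in pericyte-marker barcodes (Rgs4, Pde5a and Notch3), and Cygb and Steap4 were among those lower, whereas against the lean set 1 of 17 was higher (Pde5a) and 9 lower. Pdgfrb, the PDGF receptor of mural cells, had 337 and 270 CPM and ratios of 0.818 and 0.683, falling short of the size rule, but 0.387 and 0.319 against the lean set. Ndufa4l2, a mitochondrial subunit common in pericytes, had 0.365 and 0.274 against the lean set and Cox4i2, a respiratory chain subunit, 0.607 and 0.518. Steap4, a metalloreductase, had 0.104 and 0.200, and Cygb, cytoglobin, 0.224 and 0.232. Notch3, which maintains arterial smooth muscle, had 746 and 769 CPM and lean ratios of 1.27 and 1.16. The lean set at 24 months held leukocyte markers at 2157 CPM against 250 at 3 months, and the part of these in its ratios was not tested.

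Among matrix genes more were lower than higher in members, and most were not past the size rule in both libraries. At 3 months alone 4 of 42 counted were higher and 23 lower, against 538 and 1091 of 6317 over all genes. At 24 months alone 4 of 36 were higher and 10 lower, against 361 and 612 of 5426. Of 36 counted in both libraries, 2 were higher (Col18a1 and Sparcl1) and 10 lower. Against the lean set 2 of 15 were higher (Sparcl1 and Tinagl1) and 5 lower (Lama2, Sparc, Mgp, Timp3 and Postn). Mgp, matrix Gla protein, an inhibitor of calcification, had 3851 and 5812 CPM in members and 10019 and 7466 CPM in pericyte-marker barcodes. Timp3, an inhibitor of matrix proteases, had ratios of 0.354 and 0.354. Sparcl1, a matricellular protein, had 1176 and 1524 CPM, with ratios of 2.23 and 2.89 and lean ratios of 3.48 and 4.53.

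Mitochondrial and stress transcripts differed between the classes as well. A median of 8.73% and 9.13% of a member's UMIs came from mitochondrially encoded genes, against 4.23% and 4.27% in pericyte-marker and 3.94% and 3.90% in lean pericyte barcodes. Those genes summed to 1.91 times the pericyte-marker level at both ages. With these genes and Ttr left out of the total, the contractile ratios were 4.92 and 5.09. A mitochondrial limit of 10%, which left 32 and 16 members and so compared other barcodes, gave 4.13 and 4.43. The heat shock and immediate early list had 2 higher (Atf3 and Cryab) and 9 lower of 31. Compared with the lean set, the same list had 0 higher and 9 lower of 28. MHC class I genes were lower in members than in pericyte-marker barcodes (0 higher and 8 lower of 16 in both libraries). Against the lean set 3 of 3 counted were lower at 3 months, with a summed ratio of 0.620 (0.502 to 0.763). At 24 months 0 of 4 were past the size rule there, with 0.836 (0.667 to 1.04), so 0 of 3 passed it in both libraries.

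Single members differed widely in Rgs5. Rgs5, a regulator of G-protein signalling used as a mural cell marker, had 1335 and 454 UMIs (8818 and 6122 CPM) and was found in 43 of 45 and 20 of 24 members. With each barcode thinned to 1500 UMIs it ran from 0 to 53 with a median of 11 at 3 months, and from 0 to 45 with a median of 7 at 24 months. Its variance over its mean was 11.4 and 10.6, against a median of 1.28 over 202 genes and 1.47 over 212 genes with a mean above 1 UMI. By this measure it ranked 2 at 3 months, after the nuclear RNA Malat1, and 6 at 24 months, after Ttr, Spp1, Malat1, Mt1 and Mgp. Among contractile genes the spread was smaller, with 4.66 and 3.46 for Acta2 and 1.28 and 1.05 for Mylk. Acta2 ran from 0 to 29 (median 7) and from 0 to 25 (median 7.5), and Myl9 from 0 to 16 and from 0 to 10, each with a median of 5. The ranges of the ages overlapped for every gene in the plot of single barcodes.

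**Figure D3:**
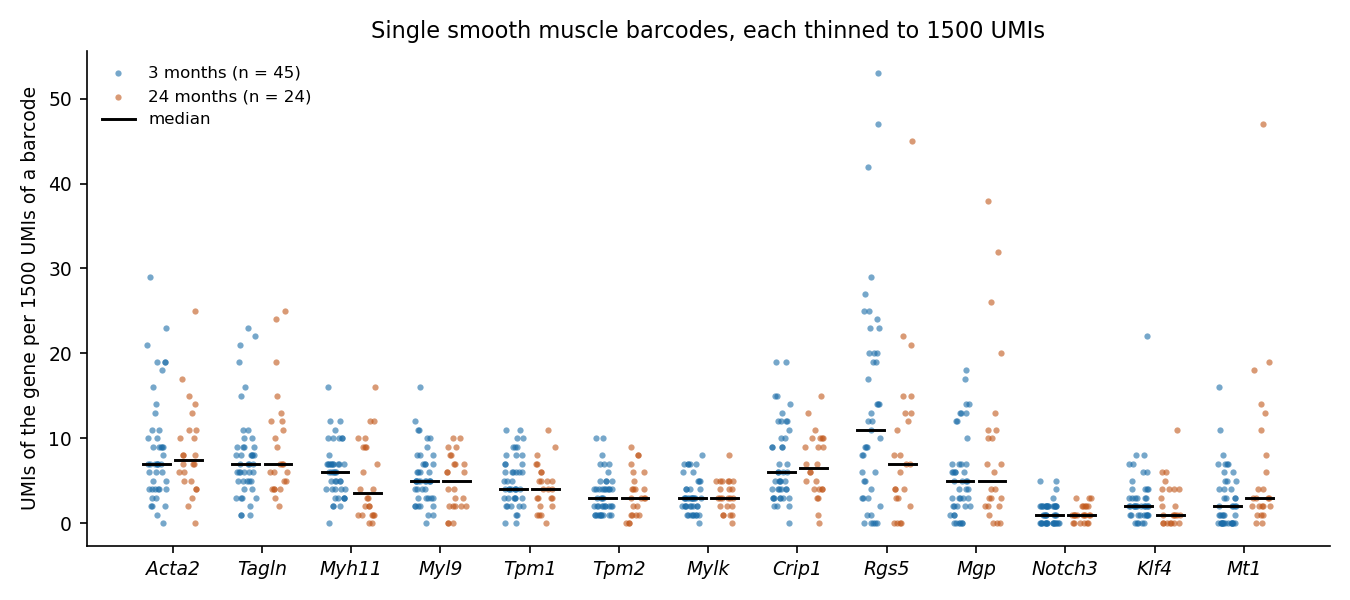
UMIs of 13 genes in each smooth muscle barcode thinned to 1500 UMIs (y axis), blue for 45 barcodes at 3 months and orange for 24 at 24 months, with the median as a bar. The points of both ages overlap for each gene, and Rgs5 spreads from 0 to 53.

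Members with much Rgs5 held fewer contractile UMIs. Across the 45 members at 3 months Spearman's rho of thinned Rgs5 with the summed contractile list was -0.49 (Pearson's r -0.45), and across the 24 at 24 months it was -0.40 (r -0.20). These are descriptions over barcodes of 1 library that share a fixed total of UMIs, which by itself ties genes together. At 3 months the 8 members with fewer than 3 Rgs5 UMIs had 31 to 105 contractile UMIs (median 83), and the 13 with 20 or more had 35 to 66 (median 47). At 24 months the 5 and 3 such members had 20 to 91 (median 75) and 37 to 68 (median 58). These limits were chosen after the values were seen, and the ranges overlap. The 13 members at 3 months held 12 of the 19 UMIs of Kcnj8, Abcc9 and Higd1b found in all members, and the 3 at 24 months held 0 of 21. Of the 12 UMIs at 3 months, 6 lay in 1 barcode and 4 in another, and most of the 13 members held none. Mgp, too, ran against the contractile sum, with rho -0.49 and -0.39. At 24 months the highest thinned Mgp, 38 UMIs, lay in the member whose markers go against the label, with 20 contractile UMIs. Fibroblast-rich members were also among those high in Mgp, and rho without these barcodes was not computed.

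**Figure D4:**
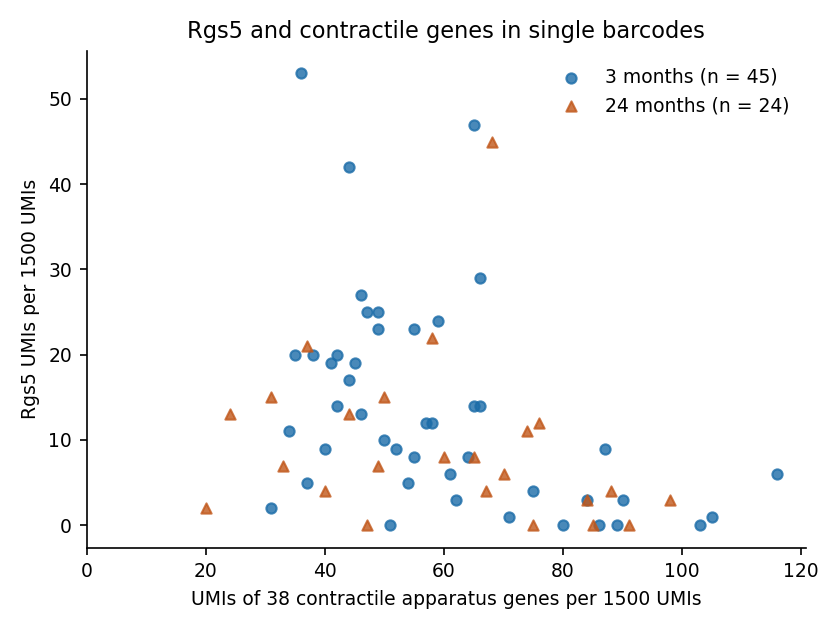
Each point is 1 smooth muscle barcode thinned to 1500 UMIs, with UMIs of 38 contractile apparatus genes on the x axis and Rgs5 UMIs on the y axis, circles at 3 months (n = 45) and triangles at 24 months (n = 24). Barcodes with 20 or more Rgs5 UMIs lie at or below 68 contractile UMIs, and those with fewer than 3 reach 105. The highest contractile value, 116, lies in a barcode with 6 Rgs5 UMIs.

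Between the ages the contractile genes differed little. The contractile list summed to 38997 CPM at 3 months and 38809 at 24 months, a ratio of 24 to 3 months of 0.995 (0.951 to 1.04), with a median log2 ratio of 0.10 against 0.00 over all genes counted. None of its 32 counted genes was past the size rule, against 56 of 1178 genes higher (4.75%) and 34 lower (2.89%) at 24 months. Scaled by TMM factors, which shift all log2 age ratios by -0.15, the split was 33 higher and 84 lower, so a direction near 1 rests on the scaling, and the contractile ratio was then 0.899. Acta2 had a ratio of 0.944 (0.837 to 1.06), Tagln of 1.11 (0.992 to 1.25) and Myl9 of 0.915. Myh11 was at 0.736 (0.634 to 0.853), a difference too small for the size rule. Its thinned median was 6 UMIs at 3 months and 3.5 at 24 months, with ranges of 0 to 16 at both. Pln stood at 0.864 and Npy1r at 1.21, neither past the rule.

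Metallothioneins were higher in the 24-month members. Mt1, a metal-binding protein induced by metals and glucocorticoids, had 1843 CPM at 3 months and 4140 at 24 months, a ratio of 2.25 (1.90 to 2.65), and Mt2, its paralogue, went from 106 to 458 CPM, a ratio of 4.34 (2.33 to 8.42). A single barcode held 60 of the 307 Mt1 UMIs at 24 months (19.5%), and the thinned medians were 2 and 3 UMIs with overlapping ranges of 0 to 16 and 0 to 47. In pericyte-marker barcodes the age ratio was 0.696 (0.653 to 0.741) for Mt1 and 0.895 (0.741 to 1.08) for Mt2. In lean pericyte barcodes it was 0.898 (0.782 to 1.03) for Mt1 and 1.68 (0.955 to 2.97) for Mt2, and in other kept barcodes 1.34 (1.31 to 1.36) and 1.54 (1.46 to 1.63). Without the fibroblast-rich members the member ratios were 2.42 and 4.58.

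Some interferon-linked and antigen presentation genes were also higher at 24 months, in small counts. Of 4 interferon response genes counted, Isg15 and Ifitm3 were past the size rule, and of 3 MHC class I genes all 3 were (H2-D1, H2-K1 and B2m). Isg15, a ubiquitin-like protein, had 13 and 18 UMIs and a ratio of 2.83 (1.31 to 6.28), and 3.09 (1.41 to 6.92) without the fibroblast-rich members. H2-D1, a class I heavy chain, went from 145 to 405 CPM, a ratio of 2.78 (1.55 to 5.06), and 2.22 (1.02 to 4.78) without them. For Ifitm3, a membrane protein that blocks viral entry, the ratio was 2.32 (1.65 to 3.27) with and 1.28 (0.811 to 1.98) without them, and for B2m, the class I light chain, 1.86 and 0.985. H2-K1, another heavy chain, had 2.27 (1.14 to 4.55) with and 1.86 (0.763 to 4.40) without them. The differences of Ifitm3, B2m and H2-K1 did not pass the size rule without those barcodes, which left Isg15 and H2-D1. The summed class I list was also higher at 24 months in pericyte-marker barcodes, at 1.41 (1.35 to 1.46), in lean pericyte barcodes, at 1.33 (1.11 to 1.59), and in other kept barcodes, at 1.26 (1.24 to 1.28), against 1.79 (1.4 to 2.30) in members. The member value includes the fibroblast-rich members. The summed interferon list, with those members too, had an age ratio of 1.74 (1.43 to 2.10) in members. It was 1.06 (1.02 to 1.10) in pericyte-marker, 1.13 (0.998 to 1.28) in lean pericyte and 1.21 (1.20 to 1.23) in other kept barcodes. The difference between classes was not tested for either list.

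The other genes higher by the naming rule fell into the same 2 kinds. Dbi (acyl-CoA binding protein, 2.36 in both), Neat1 (a nuclear long noncoding RNA, 2.09 and 2.49) and Phlda1 (a pleckstrin-homology protein, 2.57 and 2.22) were at similar ratios with and without the fibroblast-rich members. For Phlda1, however, 35 UMIs at 3 months and 44 at 24 months fell to 17 and 16 without them, so its level rested largely on those members at both ages. Apoe (apolipoprotein E) went from 2.08 (1.60 to 2.69) to 1.14 (0.774 to 1.66). Mgp, named as a list member, went from 1.51 (1.33 to 1.71) to 1.04. Dcn, the fibroblast proteoglycan decorin, went from 10.7 (5.73 to 21.8) to 0.788 (0.0777 to 4.41), but it belongs to the list that chose the barcodes left out, so that fall follows from the choice. Spp1, osteopontin, had 3 and 44 UMIs, a ratio of 29.9 (9.60 to 151), but 35 of the 44 (79.5%) lay in 1 barcode, and no UMI was left at either age without the fibroblast-rich members.

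Genes lower at 24 months rested on few UMIs. Bdnf, a neurotrophin, had 30 UMIs at 3 months and 0 at 24 months, at least 4.90-fold lower, and its age ratio was 0.438 in pericyte-marker barcodes. Col1a2, a fibrillar collagen chain, had 34 and 3 UMIs, a ratio of 0.180 (0.0350 to 0.573), and 0.334 in pericyte-marker barcodes. Ccnd1, cyclin D1, had 47 and 8 UMIs, a ratio of 0.347 (0.142 to 0.742), while in pericyte-marker barcodes it was 1.77 (1.51 to 2.09). Birc6 (an inhibitor of apoptosis, 0.180), Arid4b (a chromatin protein, 0.263) and Mast4 (a kinase, 0.314) were lower too, with 0.929, 1.09 and 1.02 in pericyte-marker barcodes. Ralgapa1, Hmgb2, Jmy and Ndufb5 completed the 10 genes, at 0.340, 0.371, 0.386 and 0.383. For Ralgapa1, Hmgb2 and Jmy the interval included 1 without the fibroblast-rich members.

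**Figure D5:**
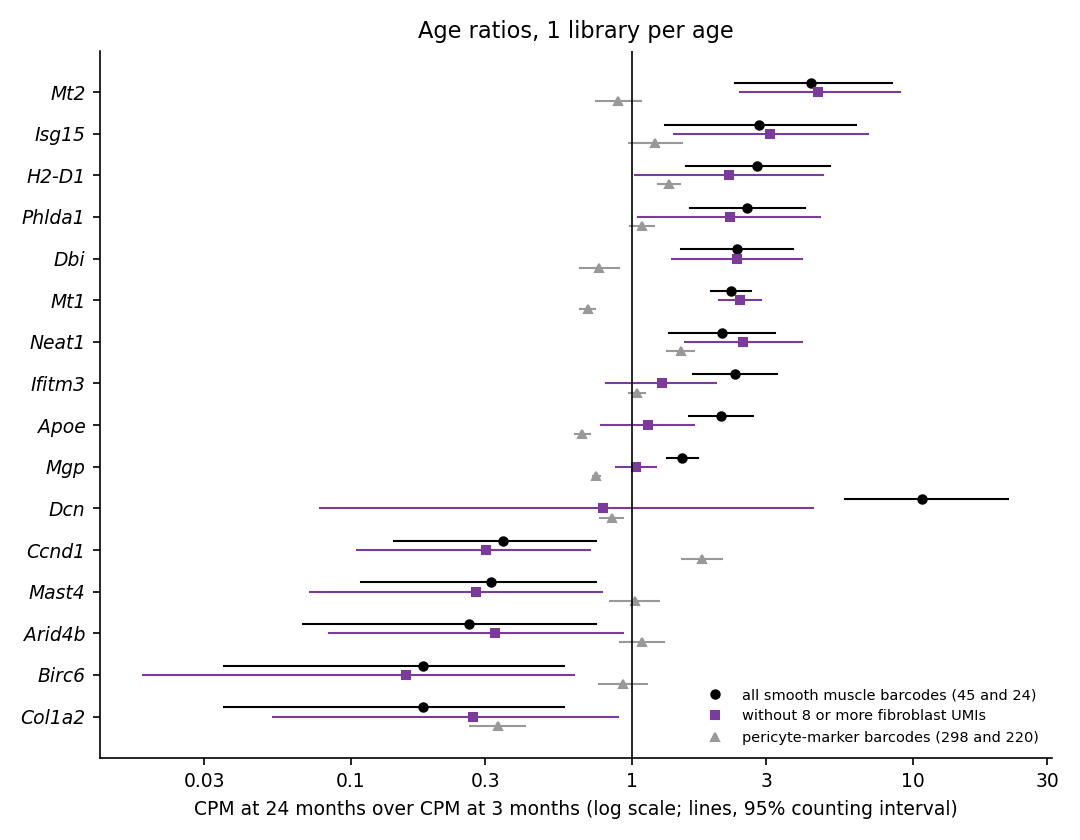
Ratio of CPM at 24 months to CPM at 3 months on a log axis for 16 genes, with exact 95% counting intervals, for all smooth muscle barcodes (black circles), those without 8 or more fibroblast UMIs (purple squares) and pericyte-marker barcodes (grey triangles). Mt1 and Mt2 stay above 1 in both smooth muscle sets, whereas Dcn drops from 10.7 to 0.788.

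The remaining lists are given beside all 1178 genes counted by age, of which 4.75% were higher and 2.89% lower. Vasoactive signalling had 0 of 14 genes higher and 2 lower, Rgs7bp at 0.654 (0.428 to 0.976) and Rock1, a kinase that sustains contraction, at 0.571 (0.376 to 0.846). Its summed ratio was 0.774 (0.714 to 0.838), and 0.893 (0.791 to 1.01) without Rgs5, which supplied 1335 of its 2217 UMIs at 3 months. Rgs5 itself stood at 0.694 (0.623 to 0.773), short of the size rule. The pericyte genes outside the rule had 0 of 14 past it, with a summed ratio of 0.813 (0.748 to 0.884) that was 1.07 (0.933 to 1.23) without Rgs5.

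Calcium handling and channel genes had 0 higher and 1 lower of 13, Stim1, the calcium sensor of the sarcoplasmic reticulum, at 0.314 (0.0797 to 0.905) with 26 and 4 UMIs. In the Notch and PDGF list of 13, Id1, a BMP target, was higher at 1.54 (1.10 to 2.13) and Nrarp, a Notch target, lower at 0.430 (0.173 to 0.935). Id1 was at 1.43 (0.998 to 2.04) without the top member at each age, short of the size rule. It was at 1.79 (1.26 to 2.52) without the fibroblast-rich members. Of 15 matrix genes Dcn, Mgp and Thbs1 (thrombospondin 1, 1.79) were higher and Col1a2 lower. For Thbs1, 18 of 50 UMIs at 24 months lay in 1 barcode. Its ratio was 1.48 (0.908 to 2.38) without the top member at each age and 1.62 (1.05 to 2.47) without the fibroblast-rich members. Of 8 genes linked to modulation and calcification Spp1 and Mgp were higher and Igfbp5, an IGF-binding protein, lower at 0.494 (0.295 to 0.793). Of 26 immediate early and heat shock genes Ier3 and Zfp36, an apoptosis regulator and an RNA-destabilizing protein, were higher, each at 1.77 (1.17 to 2.68). Transcription factors had 0 of 11 past the rule, endoplasmic reticulum folding genes 0 of 11 and mitochondrially encoded genes 0 of 13, with a summed ratio of 0.990 for the last.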

How the data were processed

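The analysed tables, 1 per age, hold UMI counts per gene and barcode deposited by the authors as raw whole numbers. Cell Ranger 4.0.0 and build mm10 are named, per the submitters' processing notes; for the gene annotation and the calling of barcodes, the tools were not given in the sources used here. UMIs were summed over the barcodes of a class and library and divided by the class total (CPM). Log2 ratios used a pseudocount of 10 CPM. Ratios have exact conditional binomial intervals and shares Clopper-Pearson intervals (95%). A class with no UMI of a gene was set at a floor of 3 counts for a bound on the fold. No p-value was computed, since each age is 1 library.

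The members, the 21 gene lists and the comparisons were chosen with earlier results of these data known. Genes were named by rule. Between classes these were the 12 highest and 12 lowest mean log2 ratios of genes that reached 100 CPM in 1 class and passed the size rule in both libraries, without the 6 smooth muscle and pericyte rule genes and with no minimum of UMIs. By age they were the 10 highest and 10 lowest of genes that reached 100 CPM and 30 UMIs in 1 library and kept 1 direction under every scaling. Genes under 10% of the level in Ttr-high barcodes were left out, as were predicted, haemoglobin, mitochondrial and ribosomal protein genes and Xist. Members of the lists at 100 CPM or more, and weaker receptors, channels and transcription factors, were also named.

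Scrublet's automatic threshold marked 14 and 4 barcodes (0.153% and 0.0384%) and did not work here, so no doublets were removed; an alternative removed the 670 and 870 highest scores. Numpy 2.4.6, scipy 1.17.1, pandas 2.3.3, scanpy 1.11.5 and edgeR 4.0.16 (TMM factors only) were used, and the scripts were tested on simulated data. The alternatives changed the limits of the rule, the scaling, the pseudocount, the minimum of UMIs, the fold, the depth and the pericyte barcodes compared. Alternatives on pericyte barcodes and on fibroblast-rich or single members were chosen after seeing the data. An item of the gene lists is not reported here.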

Additional observations from a re-analysis of the deposited data

Results flagged for a closer look

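For 7 genes the age ratio (24 to 3 months) in smooth muscle barcodes and in pericyte-marker barcodes lay on opposite sides of 1. Each of these ratios had an interval that left out 1, and the difference between the classes was not tested. The 7 genes were picked for this pattern. The share of all genes that show it is not given, so their number is not a result about the classes. Higher in smooth muscle and lower in pericyte-marker barcodes at 24 months were Dcn (10.7 against 0.845), Dbi (2.36 against 0.766), Mt1 (2.25 against 0.696), Apoe (2.08 against 0.666) and Mgp (1.51 against 0.745). Lower in smooth muscle and higher in pericyte-marker barcodes were Ccnd1 (0.347 against 1.77) and Igfbp5 (0.494 against 1.21). Without the members that held 8 or more fibroblast UMIs, Dcn, itself a gene of that fibroblast list, was at 0.788, Apoe at 1.14 and Mgp at 1.04, while Mt1 was at 2.42, Dbi at 2.36, Ccnd1 at 0.302 and Igfbp5 at 0.529. In lean pericyte barcodes the age ratio was 0.898 (0.782 to 1.03) for Mt1, 0.857 (0.541 to 1.34) for Dbi, 0.995 for Igfbp5 and 2.50 (1.58 to 4.00) for Ccnd1.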

How the results depend on the processing

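No paired analysis was possible because each age is 1 library, and no replicate could be left out. The share ratio of 0.472 ran from 0.391 to 0.505 over its alternatives. Of the alternatives' values for the main comparisons, 81 stayed within the limits set for no change and 34 moved; of those for single genes 880 stayed, 59 moved and 3 reversed. Where the alternative's own construction does not show it, the cause was not tested. The mean of per-barcode CPM gives no counts of genes and was not used for them.

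The contractile ratios to pericyte-marker barcodes (4.67 and 4.82) were 4.13 and 4.43 under a mitochondrial limit of 10%, 4.88 and 5.35 with Ttr under 2%, 5.44 and 5.47 under median-of-ratios scaling, which moves all log2 ratios by 0.22 and 0.18, 4.92 and 5.09 with Ttr and mitochondrial genes left out, and 3.86 and 3.76 against lean pericyte barcodes. At 24 months it was 5.21 without members of 3 or more pericyte UMIs, 4.21 under TMM and 5.31 without fibroblast-rich members; at 3 months it was 4.40 against endothelial-poor pericyte barcodes. Genes higher and lower in both libraries (222 and 473) were 98 and 196 with barcodes thinned to 1500 UMIs and 99 and 123 against the lean set, and 300 were lower under the mitochondrial limit of 10% and 289 against endothelial-poor pericyte barcodes. There Flt1 and Kdr at 3 months reversed to 1.18 (0.202 to 4.93) and 3.16 (0.0402 to 248), intervals that include 1. The mitochondrial limit of 10% left 32 and 16 members, and Ttr under 2% left 23 and 17.

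Genes higher and lower by age (56 and 34) were 33 and 84 under TMM, 33 and 9 after thinning, 107 and 77 with a minimum of 10 UMIs and 156 and 77 with none. With a fold of 2 as the limit 24 were higher, and with Ttr under 2% 16 were lower. The contractile age ratio of 0.995 was 1.06 with Ttr under 2%, 1.07 without members of 3 or more pericyte UMIs, 0.899 under TMM and 1.07 without fibroblast-rich members, where Dcn, a gene of the fibroblast list, reversed to 0.788. Depth limits the age comparison too, since 1 UMI is worth 13.5 CPM at 24 months.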

Other observations

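Immediate early genes, which respond quickly to stimuli, varied between single members. Fos, a subunit of AP-1, had 4379 CPM at 3 months and 3776 CPM at 24 months in members, and its variance over its mean was 8.25 and 5.04 after thinning. Malat1, a nuclear long noncoding RNA, had the ratios 12.4 and 17.7. Across members, thinned Fos and Rgs5 had a Spearman's rho of -0.58 at 3 months (n = 45) and 0.20 at 24 months (n = 24), so the sign differed between the libraries, a difference that was not tested.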
